A study of Mus musculus with 8 samples.

Results

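The 10 genes Sox7, Sox17, Sox18, Erg, Fli1, Tcf15, Meox2, Gata2, Lmo2 and Tal1 encode transcription factors, or in the case of Lmo2 a bridge between transcription factors, that are known for their part in endothelial cells, the lining of blood vessels. They were taken by symbol from the deposited gene table, which held all 10 among its 32285 genes, and their raw counts were described across the endothelial clusters and against the other cell types of the aorta. The tissue was the ascending thoracic aorta, the first stretch of the artery after the heart, from 3 aged wildtype mice of 81, 84 and 88 weeks. Each mouse carried its own antibody hashtag, a barcode that is read beside the messenger RNA, and the 3 mice were pooled for droplet sequencing (10x Genomics 3′ chemistry). Treatment and strain are not given in the sources used here, the only age class is aged, and with 1 animal per age an effect of age and one of the animal cannot be told apart. The 8 libraries, 4 of gene expression and 4 of hashtags, come from 1 pool of cells and are not kept apart in the matrix. The replicates in every comparison are therefore the 3 animals, with the same animals on both sides. The p-values weigh the difference between groups against its variation over these animals. That variation is estimated for each gene with help from all other genes tested.

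Blood vessel identity is kept by several families of transcription factors that act together. Sox7, Sox17 and Sox18 form the SoxF group of HMG-box factors, which are needed for vessel formation and for the arterial fate. Erg and Fli1 are ETS factors that bind the enhancers of most endothelial genes and keep endothelial cells from losing their identity. Gata2, a zinc finger factor, and Tal1, a helix-loop-helix factor, are held in one complex by the LIM-only protein Lmo2 in blood stem cells and in endothelium. Tcf15, a helix-loop-helix factor, and Meox2, a homeobox factor, are reported to pair in the capillaries of heart and skeletal muscle and to raise genes of fatty acid uptake there.

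Promoter sequences were available in RefSeq (GRCm38.p6) at the annotated gene start of 3 members, and they are shown because these genes differ between the endothelial clusters or lie in the same complex. Each runs 5′ to 3′ on the strand of the gene, from 250 bases before to 50 bases after the start. Capitals mark matches to 4 short motifs searched on both strands: GGAAGT for ETS factors, AGATAA for Gata factors, CAGNTG for the E-box that helix-loop-helix factors bind, and ACAAAG for Sox factors.
Tal1, chr4:115056176-115056475, plus strand: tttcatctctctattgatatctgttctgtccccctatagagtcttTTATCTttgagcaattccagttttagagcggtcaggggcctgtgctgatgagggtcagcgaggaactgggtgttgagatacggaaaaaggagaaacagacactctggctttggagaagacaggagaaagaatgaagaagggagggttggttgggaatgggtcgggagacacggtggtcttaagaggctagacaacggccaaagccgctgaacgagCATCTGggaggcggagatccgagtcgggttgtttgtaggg
Gata2, chr6:88193641-88193940, plus strand: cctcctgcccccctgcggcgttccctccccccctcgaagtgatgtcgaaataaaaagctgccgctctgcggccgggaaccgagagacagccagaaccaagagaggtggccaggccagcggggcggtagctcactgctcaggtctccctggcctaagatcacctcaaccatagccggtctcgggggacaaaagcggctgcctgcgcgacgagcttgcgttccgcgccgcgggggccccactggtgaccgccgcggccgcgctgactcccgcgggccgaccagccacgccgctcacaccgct
Meox2, chr12:37108290-37108589, plus strand: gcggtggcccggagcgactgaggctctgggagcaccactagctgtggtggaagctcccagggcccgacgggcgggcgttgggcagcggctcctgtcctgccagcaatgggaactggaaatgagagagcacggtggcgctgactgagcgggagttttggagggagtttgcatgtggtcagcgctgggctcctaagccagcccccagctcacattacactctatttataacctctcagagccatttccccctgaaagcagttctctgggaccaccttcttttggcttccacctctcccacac
The Tal1 window held 1 match to the Gata motif on the other strand, which reads TTATCT and whose first base lay 205 bases before the start, and 1 match to the E-box on the other strand, which reads CATCTG and whose first base lay 10 bases after it, and the matches did not overlap. The windows of Gata2 and Meox2 held none of these 4 motifs. Among the 32851 RefSeq promoter windows of this length, 11.2% held the Gata motif, 51.4% the E-box, 23.8% the ETS motif and 18.7% the Sox motif, so a match of this kind is common and is given as a description of the letters only.

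The deposited matrix held 26916 distinct cell barcodes with 142108011 UMIs (unique molecular identifiers, 1 per captured RNA molecule) of genes. After filters on depth and mitochondrial RNA, removal of doublets and assignment of 1 hashtag, 4175 cells remained, 569 from the 81-week animal, 2554 from the 84-week animal and 1052 from the 88-week animal. Cell classes were rebuilt by clustering without the 10 members, and each class is called "-like" from its marker genes. Of the kept cells, 919 were endothelial-like, 881 smooth muscle-like, 231 fibroblast-like, 1449 T cell-like, 193 erythroid-like, 33 epithelial-like, 30 mesothelial-like and 21 pericyte-like, and 418 cells in 7 clusters stayed without a class. The large T cell-like class, led in its biggest cluster by Rag1, Cd8b1 and Cd4, is not named in the labels of this tissue. All 10 endothelial markers were detected in the endothelial-like class, and their summed level was 6444, 6295 and 6228 CPM (UMIs of a gene scaled to a common total of gene UMIs in the summed cells) in the 81-, 84- and 88-week animals, against 57.6 to 60.9 CPM in smooth muscle-like cells. RNA of T cells was spread over the other classes. At least 2 UMIs of the 10 T cell markers were held by 16.0% of endothelial-like, 52.3% of smooth muscle-like and 51.9% of fibroblast-like cells. A cutoff in UMIs is reached more easily in deeper cells, and the median depth was 4135, 12185 and 8195 UMIs in that order. The shares therefore do not rank the classes by T cell RNA. In the same order the T cell markers summed to 115, 121 and 111 CPM in the 81-week animal. They summed to 451, 661 and 850 CPM in the 84-week animal, and to 184, 366 and 515 CPM in the 88-week animal.

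Endothelial-like cells fell into 3 clusters, which are called by their leading genes. The Cytl1 cluster (71 cells, 800050 UMIs) was led by Cytl1, Bmp4 and Vwf, and 6 of the 8 large vessel markers were at least 2-fold above both other clusters in it. Of the 8 arterial markers, 4 were at least 2-fold above both other clusters in the Cytl1 cluster and 3 in the Sema3g cluster, and they summed to 1221 CPM in the Cytl1 cluster, 2910 CPM in the Sema3g cluster and 552 CPM in the Cxcl9 cluster. The Sema3g cluster (211 cells, 1070977 UMIs) was led by Rbp7, Btnl9 and Sema3g. The Cxcl9 cluster (637 cells, 3189487 UMIs) was led by Cxcl9, Gpihbp1 and Aqp1, and 1 of the 7 capillary markers, Aqp1, was at least 2-fold above both other clusters in it. The 7 capillary markers summed to 504 CPM in the Cytl1 cluster, 3739 CPM in the Sema3g cluster and 6351 CPM in the Cxcl9 cluster, of which Aqp1 alone gave 484, 228 and 2509 CPM in that order. Pericyte markers were not even among the clusters: their summed level was 12.5 CPM in the Cytl1 cluster, 894 CPM in the Sema3g cluster and 161 CPM in the Cxcl9 cluster. Of the 5 endocardial markers, 2 were at least 2-fold above both other clusters in the Cytl1 and 1 in the Sema3g cluster. They summed to 799, 155 and 83.1 CPM in the Cytl1, Sema3g and Cxcl9 clusters. In that order the 5 venous markers summed to 281, 29.9 and 88.7 CPM, and the 6 lymphatic markers to 60.0, 52.3 and 111 CPM. Among the latter, Ccl21a and Mmrn1 had 104 and 43 UMIs in the Cxcl9 cluster and 0 in both others.

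Against each of the 4 other classes that had enough cells in every animal, all 10 members were higher in endothelial-like cells taken as one class. No single endothelial cluster was tested against another class. In the Cytl1 cluster the summed levels of Tcf15 and Meox2 were 11.25 and 13.75 CPM, below the 19.7 and 57.6 CPM of fibroblast-like cells. For Lmo2 the summed level was 757.5 CPM in the Cytl1, 79.4 CPM in the Sema3g and 88.1 CPM in the Cxcl9 cluster, against 39.9 CPM in fibroblast-like cells. A call here needs an adjusted p under 0.05 in edgeR's quasi-likelihood test with Benjamini-Hochberg adjustment over all genes and a log2 fold change of at least 1, with the animal as a block. All 10 members passed the filter on low counts in every comparison, and all 10 were called higher in endothelial-like over smooth muscle-like cells, where 15.6% of the 10569 genes tested passed in that direction and 16.1% in the other. The same 10 of 10 were called over fibroblast-like cells (13.1% of 9510 genes called higher and 15.6% lower), over T cell-like cells (26.8% of 10212 genes called higher and 20.3% lower) and over erythroid-like cells (23.0% of 8150 genes called higher and 11.7% lower). The 4 comparisons share the endothelial-like samples, so their counts are not independent of each other. The median log2 fold change of the members was 6.71 over smooth muscle-like, 4.89 over fibroblast-like, 7.27 over T cell-like and 5.46 over erythroid-like cells, against 0.01, 0.00, 0.00 and 0.23 over all genes tested. Since endothelial-like cells were grouped by genes that vary together with the members, a higher level there is a description of the class more than a test of it. Some members also passed the filter only through the endothelial-like samples. The other side held 6 UMIs of Sox7, 3 of Sox17 and 5 of Sox18 in smooth muscle-like cells, and 0 of Gata2 and Tal1 in erythroid-like cells. At such counts only a higher call or none could arise, so 10 of 10 is no support beside the shares of all genes.

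**Figure D1:**
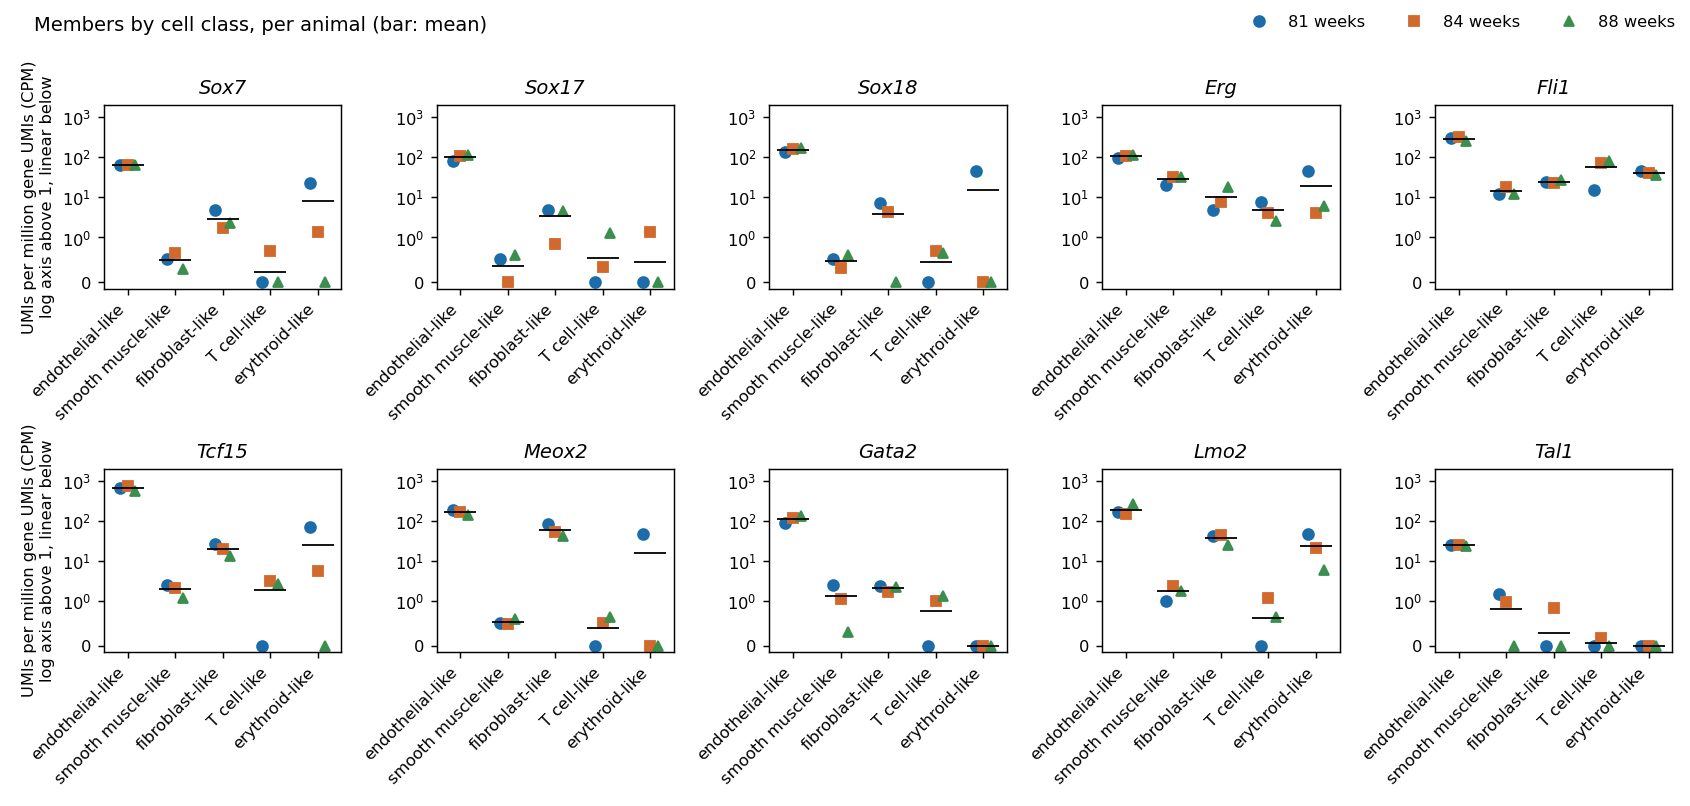
Level of each member (CPM, log axis above 1 and linear below) in endothelial-like, smooth muscle-like, fibroblast-like, T cell-like and erythroid-like cells, with 1 point per animal and a bar at the mean. Erg stays at 20.9 CPM or more in the smooth muscle-like cells of every animal, and Meox2 at 43.3 CPM or more in fibroblast-like cells, whereas Sox17, Sox18 and Tal1 lie near 0 in smooth muscle-like cells.

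The SoxF genes were close to absent from the other named classes. Some clusters without a class did hold them. One of 49 cells led by Hbb-bs, Hba-a2 and Hba-a1 had 30.2 CPM of Sox7, 80.5 CPM of Sox17 and 117 CPM of Sox18, beside 634 CPM of Tcf15. Another of 16 cells led by Mylk4, Itga8 and Ccdc3 had 6.85, 17.1 and 41.1 CPM of Sox7, Sox17 and Sox18. The remaining clusters without a class had at most 3.89 CPM of any SoxF gene. Sox7 (chr14:63943706-63950732) had 65.0, 64.4 and 64.5 CPM in the endothelial-like cells of the 81-, 84- and 88-week animals, against 0.510, 0.647 and 0.298 CPM in smooth muscle-like cells. Its log2 fold change was 6.83 ± 0.26 (SE, edgeR adjusted p = 2.7e-08), and it was higher in 3 of 3 animals. Sox17 (chr1:4490928-4497426) had 82.7, 106 and 116 CPM in endothelial-like cells, against 0.510, 0.00 and 0.596 CPM in smooth muscle-like cells. These smooth muscle-like values rest on 3 UMIs, and the ratio of the summed levels was 398 with a 95% counting interval of 136 to 1932. Sox18 (chr2:181669837-181671640) had 135, 157 and 168 CPM in endothelial-like cells, against 0.510, 0.323 and 0.596 CPM in smooth muscle-like cells. In fibroblast-like cells the 3 SoxF genes averaged 2.91, 3.38 and 3.80 CPM, on 5 UMIs each for Sox7 and Sox17 and 8 UMIs for Sox18. Erythroid-like cells held 2 UMIs of Sox7, 1 of Sox17 and 2 of Sox18, and the 2 of Sox18 made 46.4 CPM in the small 81-week sample. No UMI of any SoxF gene was found in pericyte-like, mesothelial-like or epithelial-like cells, a small sample in which a count of 0 bounds the summed endothelial level of Sox18 at only at least 8.61-fold higher than in pericyte-like cells.

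The ETS pair differed from the SoxF genes in where else it was found. Erg (chr16:95359169-95586600) had 97.2, 109.5 and 115 CPM in endothelial-like cells, against 20.9, 31.5 and 33.1 CPM in smooth muscle-like cells. Its log2 fold change of 1.87 ± 0.12 (edgeR adjusted p = 9.6e-07) was the smallest of the 10 in that comparison, and its summed level in smooth muscle-like cells was 27.9% of that in endothelial-like cells, where the same share was 0.289% for Tcf15 and 0.280% for Sox18. Erg was 33.1 CPM in smooth muscle-like cells that held T cell RNA and 26.7 CPM in those that did not. Erg was at 10.2 ± 7.1 CPM in fibroblast-like and 4.79 ± 2.58 CPM in T cell-like cells (SD, n = 3 animals each).

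Smooth muscle-like cells mostly lacked a hashtag, so the level of Erg could be read again in cells that entered no comparison. In 4365 smooth muscle-like cells without a single hashtag Erg had 1641 UMIs, or 31.8 CPM (95% Poisson interval 30.2 to 33.3), beside 0.890 CPM of Tcf15 and 0.0774 CPM of Sox17. Erg varied among the smooth muscle-like clusters of all hashtag states. It was lowest, at 13.5 CPM (11.5 to 15.6), in the cluster of 1228 cells led by the sarcomere genes Tnnt2 and Actc1, and highest, at 48.2 CPM (43.3 to 53.6), in the cluster of 522 cells led by Rgs5, Sost and Ncam1. The 4 other clusters held 29.0 to 36.7 CPM, and Tcf15 lay between 0.585 and 1.36 CPM in all 6 clusters. Fli1 did not follow Erg there: it had 20.9 CPM (17.1 to 25.2) in the cluster led by Sost, Npnt and Pcdh7 and 8.75 to 10.9 CPM in the 5 other clusters. Cells of a cluster come from the same 3 animals, and the intervals cover counting error only.

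**Figure D2:**
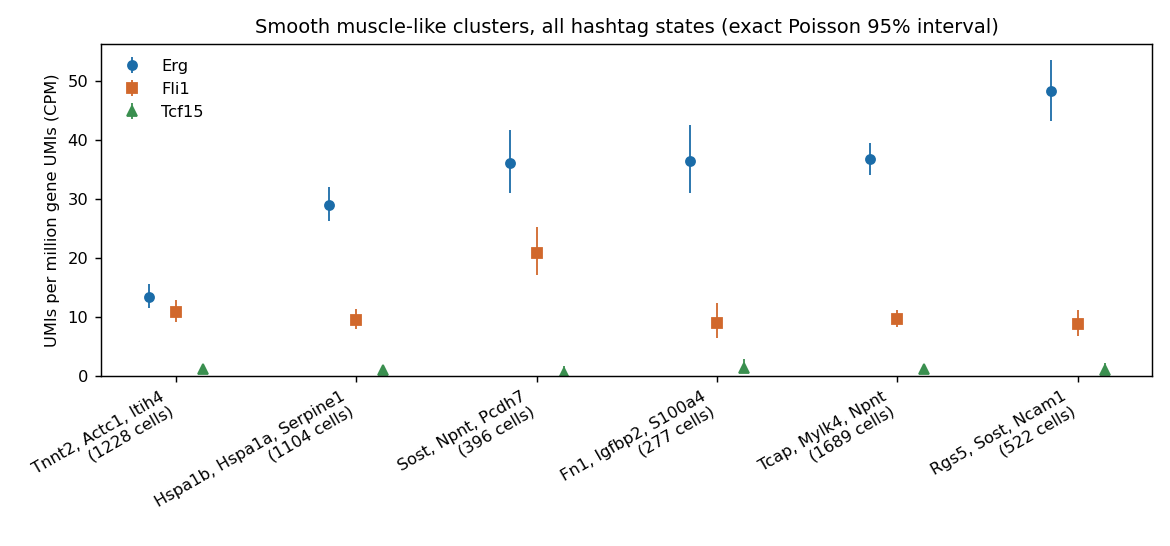
Levels of Erg, Fli1 and Tcf15 (CPM) in the 6 smooth muscle-like clusters of cells in every hashtag state, ordered by Erg, with exact Poisson 95% intervals. Erg runs from 13.5 CPM in the Tnnt2, Actc1 cluster to 48.2 CPM in the Rgs5, Sost cluster, while Tcf15 lies near 1 CPM in all of them.

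Fli1 (chr9:32422204-32543432) had 295, 324 and 252 CPM in endothelial-like cells, against 15.3, 71.3 and 80.9 CPM in T cell-like cells. Fli1 also acts in blood cells, and its log2 fold change over T cell-like cells, 2.23 ± 0.16 (edgeR adjusted p = 9.6e-22), was the smallest of the 10 members there. The low value of the 81-week animal rests on 2 UMIs in 25 T cell-like cells. Fli1 averaged 14.1 ± 3.5 CPM in smooth muscle-like, 24.7 ± 2.3 CPM in fibroblast-like and 41.5 ± 4.8 CPM in erythroid-like cells. Among clusters without a class, it had 85.6 CPM in the one led by S100a9, S100a8 and Ngp. It had 81.6 CPM in the one led by Igkc, Iglc1 and Igha. The T cell-like and erythroid-like values of Fli1 cannot be put in order, since those of the 3 T cell-like samples lie on both sides of the erythroid-like ones. T cell markers summed to 121 to 661 CPM in smooth muscle-like cells of the 3 animals, and Fli1 there was 19.0 CPM in cells with T cell RNA and 10.99 CPM in cells without it.

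Tcf15 and Meox2 were found together in one more class. Tcf15 (chr2:152143056-152149097) had 665, 752 and 556 CPM in endothelial-like cells, against 2.55, 2.10 and 1.19 CPM in smooth muscle-like cells, a log2 fold change of 8.42 ± 0.15 (edgeR adjusted p = 4.9e-10). Meox2 (chr12:37108540-37179534) had 186, 169 and 142 CPM in endothelial-like cells, against 82.99, 53.9 and 43.3 CPM in fibroblast-like cells. Its change over fibroblast-like cells was the smallest of the 10 members, at a log2 fold change of 1.52 ± 0.17 (edgeR adjusted p = 2.8e-06), and it was higher in 3 of 3 animals. Over smooth muscle-like cells, which held 0.530 ± 0.059 CPM of Meox2, the change was 8.16 ± 0.20. Endothelial RNA was present in fibroblast-like cells: the 10 endothelial markers summed to 169 to 228 CPM there, and Tcf15 averaged 19.8 ± 6.2 CPM. Meox2 stood at 35.2% and Tcf15 at 2.97% of their summed endothelial levels in these cells. In 1058 fibroblast-like cells without a single hashtag Meox2 had 49.1 CPM and Tcf15 3.27 CPM. In the 21 pericyte-like cells, too few for a test, each gene had 8 UMIs, or 48.1 CPM. In 78 pericyte-like cells without a single hashtag, Tcf15 had 86 UMIs (169.7 CPM, 95% Poisson interval 136 to 209.6) and Meox2 28 UMIs (55.3 CPM, 36.7 to 79.9), while Sox7, Sox18, Gata2 and Tal1 had none and Sox17, Erg and Lmo2 had 1 each.

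The members of the blood and endothelial complex were unequal in the other named classes. Gata2 (chr6:88193891-88207032) had 87.5, 116 and 131 CPM in endothelial-like cells, against 2.55, 1.13 and 0.298 CPM in smooth muscle-like cells (log2 fold change 6.59 ± 0.30). Tal1 (chr4:115056426-115071755) had 25.7, 24.7 and 23.4 CPM in endothelial-like cells, against 1.53, 0.9698 and 0.00 CPM in smooth muscle-like cells (log2 fold change 4.89 ± 0.43). Neither Gata2 nor Tal1 had a UMI in the 193 erythroid-like cells, so with a floor of 3 UMIs over the class their summed endothelial levels were at least 35.6-fold and at least 7.62-fold higher. Lmo2 (chr2:103957903-103981878) had 167, 149 and 260.4 CPM in endothelial-like cells, against 42.7, 44.5 and 25.05 CPM in fibroblast-like cells, a log2 fold change of 2.23 ± 0.23 (edgeR adjusted p = 1.4e-06). In fibroblast-like cells without a single hashtag, Lmo2 had 429 UMIs, or 52.0 CPM, where Tal1 had none and Gata2 1.33 CPM. The cluster without a class led by Igkc, Iglc1 and Igha held 56.9 CPM of Lmo2. Lmo2 averaged 24.4 ± 20.4 CPM in erythroid-like cells, with 46.4 CPM in the 81-week animal resting on 2 UMIs, and 1.74 ± 0.70 CPM in smooth muscle-like cells. The erythroid-like class held 10 cells of the 81-week animal, and endothelial markers summed to 232 CPM there, against 70.1 and 49.0 CPM in the 84- and 88-week animals, while T cell markers summed to 2019 to 3813 CPM. The counts over this class were the least steady: 7 of 10 members were called higher without the 84-week animal, Sox7, Erg and Tal1 being lost, and 1 of 10, Lmo2, when only cells with a hashtag at least 2 times its cutoff were kept. In that smaller set the cluster of this class held 409 CPM of Tcf15 and 18150 CPM of Fabp4, a fatty acid binding protein of capillaries, against 7.50 and 304 CPM before.

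Between the endothelial clusters the 10 members did not move together. In the Cytl1 cluster over the Cxcl9 cluster, Lmo2 and Tal1 were called higher, Tcf15, Meox2 and Fli1 were called lower, and Sox7, Sox17, Sox18, Erg and Gata2 were not called. Calls were made higher for 11.8% and lower for 11.9% of the 6401 genes that entered this test. Tcf15 and Meox2, with 9 and 11 UMIs in the Cytl1 cluster, passed the filter on low counts through the other clusters. At such counts only a lower call or none could arise for them there. Over the Sema3g cluster, Lmo2 was called higher (10.4% of genes were) and Tcf15, Meox2, Fli1 and Sox17 were called lower (11.4% of genes were). In the Sema3g cluster over the Cxcl9 cluster, Sox17 was the 1 member called higher (2.23% of genes were), and no member was called lower (1.06% of genes were). The values of Sox7 and Fli1 did not overlap in that contrast, but their changes were -0.64 ± 0.26 and -0.32 ± 0.17 on the log2 scale (edgeR adjusted p = 0.26 and 0.45). The 3 contrasts come from one fit of the same 9 samples, and each cluster enters 2 of them. The clusters were made from these same cells, by genes other than the members and the lists. A difference between clusters, with its p-value, is therefore a description of them more than a test.

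**Figure D3:**
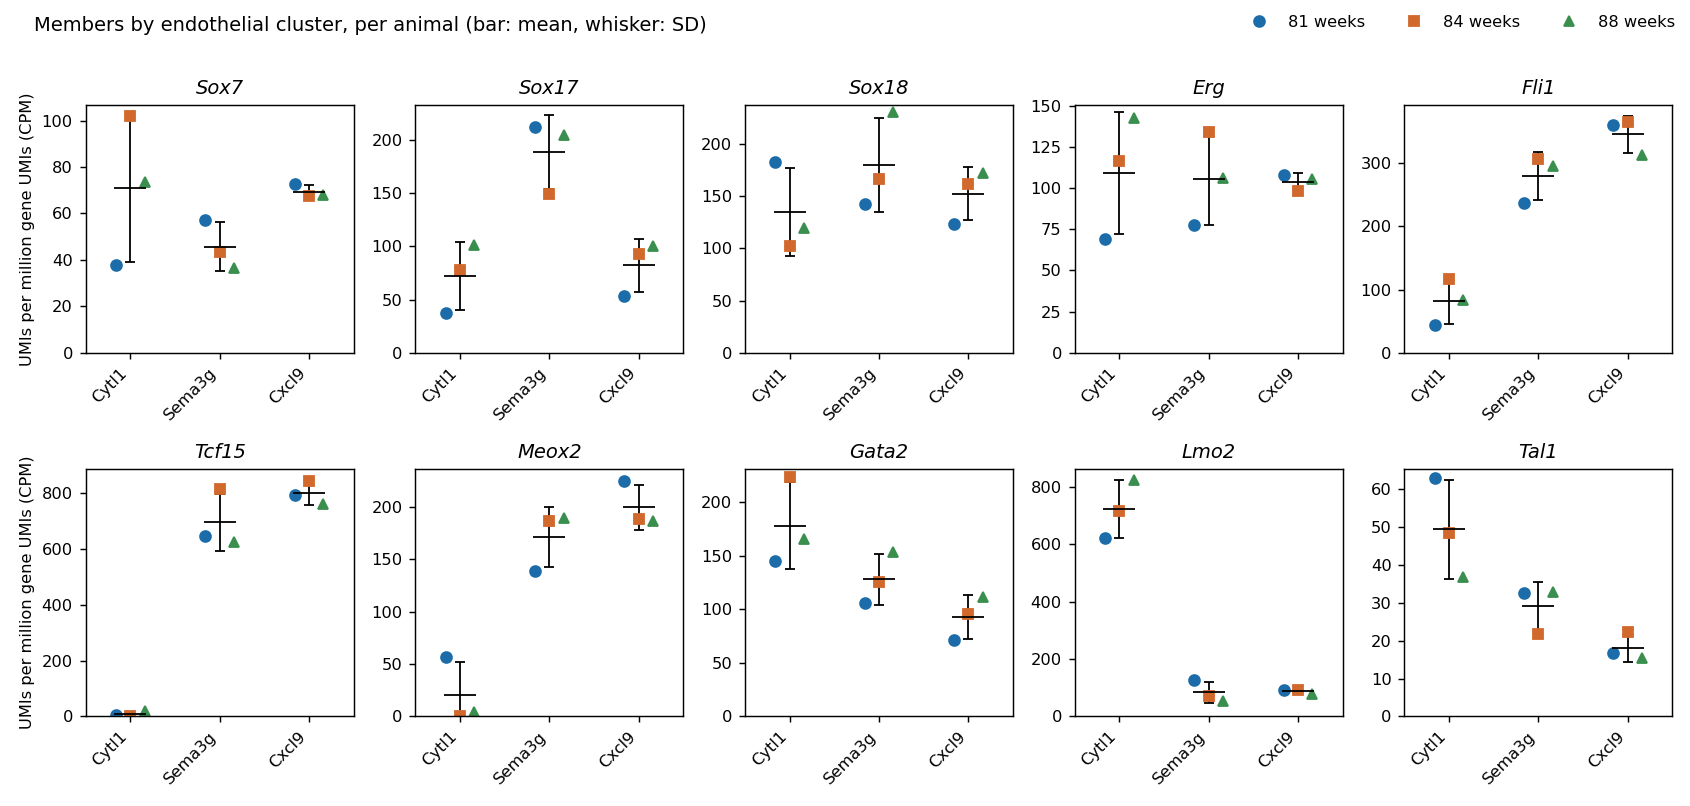
Level of each member (CPM, linear axis from 0) in the Cytl1, Sema3g and Cxcl9 clusters, with 1 point per animal, a bar at the mean and a whisker of 1 SD. Lmo2 lies between 623 and 825 CPM in the Cytl1 cluster, above every other sample, and Tcf15 lies at 18.4 CPM or less there, below every other sample.

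Lmo2 was the member that rose most in the Cytl1 cluster. It had 623, 718 and 825 CPM in the Cytl1 cluster of the 81-, 84- and 88-week animals, against 92.7, 92.7 and 78.7 CPM in the Cxcl9 cluster, and the groups did not overlap. The log2 fold change was 3.11 ± 0.20 (edgeR adjusted p = 2.1e-10) over the Cxcl9 cluster and 3.24 ± 0.23 (edgeR adjusted p = 1.6e-09) over the Sema3g cluster, which had 126, 70.7 and 54.8 CPM. The Cytl1 cluster was 71 of 919 endothelial-like cells and gave 800050 of their 5060514 UMIs, but held 606 of the 972 endothelial UMIs of Lmo2. Its partner Tal1 had 62.9, 48.5 and 36.8 CPM in the Cytl1 cluster, against 16.6, 22.2 and 15.4 CPM in the Cxcl9 cluster, on 36 and 59 UMIs in all. The log2 fold change of Tal1 was 1.40 ± 0.35 (edgeR adjusted p = 0.00337), and over the Sema3g cluster, with 32.6, 21.7 and 32.9 CPM, it was 0.85 ± 0.39 (edgeR adjusted p = 0.108). Without the cells holding T cell RNA, Tal1 no longer passed the filter on low counts, and 1 member in place of 2 was called higher over the Cxcl9 cluster. Gata2 had 145, 223 and 165 CPM in the Cytl1 cluster, against 71.3, 95.7 and 111 CPM in the Cxcl9 cluster. It was higher in 3 of 3 animals with a log2 fold change of 0.95 ± 0.19 (edgeR adjusted p = 4.8e-04), just short of the fold minimum, and at 1.2 and edgeR adjusted p = 0.00107 it was called when the 88-week animal was left out, as it was when a cell's hashtag had to reach at least 2 times its cutoff, at 1.03 and edgeR adjusted p = 5.4e-04. Over the Sema3g cluster, which had 106, 125 and 153 CPM, Gata2 changed by 0.51 ± 0.21 (edgeR adjusted p = 0.067).

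Tcf15 and Meox2 were nearly lost from the Cytl1 cluster. Tcf15 had 6.29, 0.00 and 18.4 CPM in the Cytl1 cluster, against 794, 845 and 763 CPM in the Cxcl9 cluster, a log2 fold change of -6.09 ± 0.33 (edgeR adjusted p = 1.8e-11). Over the Sema3g cluster, with 649, 814 and 624 CPM, the change was -5.87 ± 0.33 (edgeR adjusted p = 7.8e-11). Meox2 had 56.7, 0.00 and 4.596 CPM in the Cytl1 cluster, against 225, 188 and 186 CPM in the Cxcl9 cluster, and 9 of its 11 UMIs there came from the 81-week animal. The log2 fold change of Meox2 was -3.73 ± 0.45 (edgeR adjusted p = 1.7e-06) over the Cxcl9 cluster and -3.54 ± 0.49 (edgeR adjusted p = 1.2e-05) over the Sema3g cluster, which had 139, 187 and 189.8 CPM. In the Sema3g cluster over the Cxcl9 cluster, Tcf15 differed by -0.22 ± 0.17 and Meox2 by -0.19 ± 0.25 on the log2 scale (edgeR adjusted p = 0.723 and 0.864), and the 7 pericyte markers, whose cells held both genes, summed to 770 to 1128 CPM in the Sema3g cluster, against 134 to 175 CPM in the Cxcl9 cluster; their part was not tested.

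The 2 ETS members were not alike between the clusters. Fli1 had 44.1, 116 and 82.7 CPM in the Cytl1 cluster, against 360, 364 and 312 CPM in the Cxcl9 cluster, a log2 fold change of -2.0 ± 0.22 (edgeR adjusted p = 3.8e-07). Over the Sema3g cluster, with 237, 306 and 296 CPM, Fli1 changed by -1.68 ± 0.23 (edgeR adjusted p = 1.1e-05). Erg had 69.2, 116 and 142 CPM in the Cytl1 cluster, 77.5, 134 and 106 CPM in the Sema3g cluster and 108, 98.0 and 106 CPM in the Cxcl9 cluster. The values of Erg overlapped among all 3 clusters, and its log2 fold changes were 0.21 ± 0.22, 0.13 ± 0.25 and 0.07 ± 0.21 with edgeR adjusted p of 0.515, 0.749 and 0.953 in the Cytl1 over Cxcl9, Cytl1 over Sema3g and Sema3g over Cxcl9 contrasts. T cell markers, which mark cells that also hold Fli1, summed to 69.2, 155 and 80.4 CPM in the Cytl1 cluster, against 120, 637 and 227 CPM in the Cxcl9 cluster. Without the cells holding T cell RNA the same 3 members were still called lower over the Cxcl9 cluster and the same 4 over the Sema3g cluster.

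Of the SoxF genes, Sox17 changed with the Sema3g cluster. It had 212, 149 and 204 CPM there, against 53.5, 92.7 and 99.8 CPM in the Cxcl9 cluster, a log2 fold change of 1.14 ± 0.21 (edgeR adjusted p = 0.00208), and the groups did not overlap. In the Cytl1 cluster Sox17 had 37.8, 77.7 and 101 CPM, a change of -1.21 ± 0.27 (edgeR adjusted p = 0.00175) over the Sema3g cluster and of -0.07 ± 0.27 (edgeR adjusted p = 0.866) over the Cxcl9 cluster. Without the 81-week animal the change fell short of the fold minimum in both called contrasts, at 0.82 (edgeR adjusted p = 0.0236) in Sema3g over Cxcl9 and -0.89 (edgeR adjusted p = 0.00972) in Cytl1 over Sema3g. Sox18 had 183, 102 and 119 CPM in the Cytl1 cluster, 143, 167 and 230.0 CPM in the Sema3g cluster and 124, 162 and 172 CPM in the Cxcl9 cluster, and the values of all 3 clusters overlapped. Sox7 had 37.8, 102 and 73.5 CPM in the Cytl1 cluster, 57.1, 43.5 and 36.5 CPM in the Sema3g cluster and 72.5, 67.4 and 68.1 CPM in the Cxcl9 cluster. Sox7 was lower in the Sema3g cluster than in the Cxcl9 cluster in every animal, on 48 UMIs in the Sema3g cluster, without passing the test. Without the 81-week animal Sox7 was called higher in Cytl1 over Sema3g, at 1.12 (edgeR adjusted p = 0.0148), against 0.79 ± 0.32 (edgeR adjusted p = 0.0699) with all 3 animals.

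**Figure D4:**
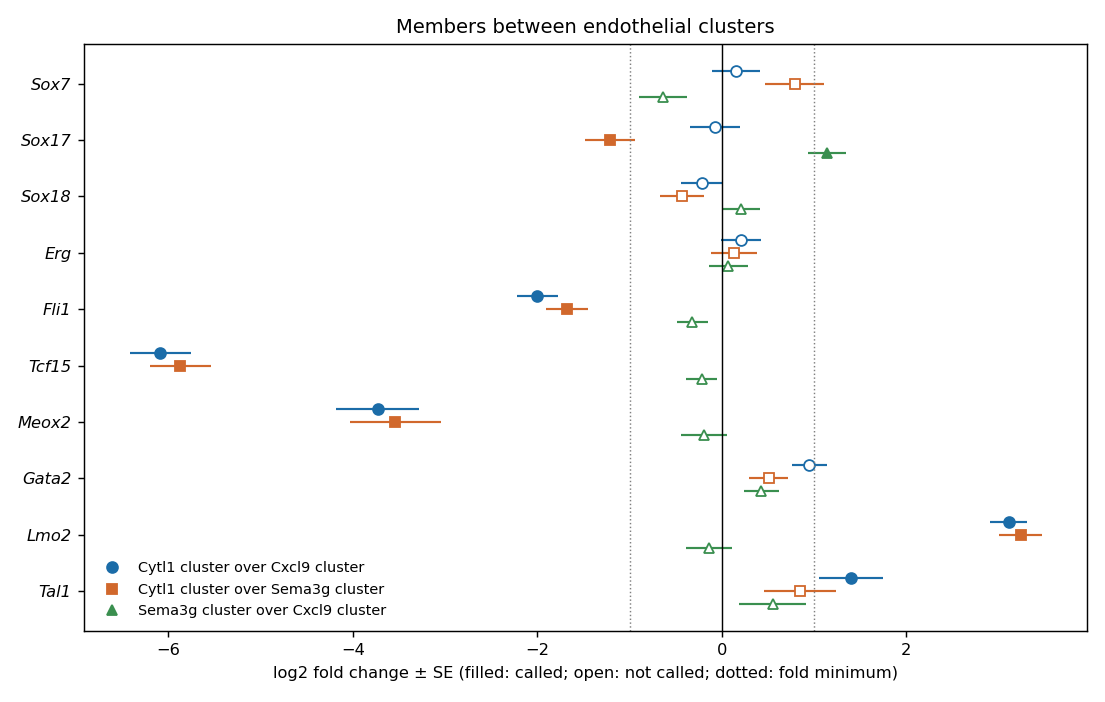
Log2 fold change of each member with its standard error (edgeR, animal as a block) for the Cytl1 cluster over the Cxcl9 cluster, the Cytl1 cluster over the Sema3g cluster and the Sema3g cluster over the Cxcl9 cluster; filled symbols are called. Lmo2 lies at 3.11 and 3.24 and Tcf15 at -6.09 and -5.87 in the contrasts of the Cytl1 cluster, and only Sox17 (1.14) is called between the Sema3g and Cxcl9 clusters.

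Shares of cells with a UMI were then set side by side, after each cell was thinned to 1000 UMIs so that the deeper Cytl1 cells (median 7770 UMIs, against 4224 in the Sema3g cluster and 3930 in the Cxcl9 cluster) could be compared. Lmo2 was seen in 37 of 71 Cytl1 cells, or 52.1% (95% exact binomial interval 39.9 to 64.1%), against 8.06% of 211 Sema3g cells and 8.32% of 637 Cxcl9 cells. Unthinned, the shares of Lmo2 were 91.5%, 28.9% and 31.6% in that order, and the lowest of the 4 larger classes, T cell-like cells with a median of 3938 UMIs, gave 0.0690% after thinning. Tcf15 was seen in 2 of 71 Cytl1 cells, or 2.82% (0.343 to 9.81%), against 48.8% of Sema3g cells and 51.2% of Cxcl9 cells, and the lowest of those 4 classes, smooth muscle-like cells with a median of 12185 UMIs, gave 0.341%. Unthinned, Tcf15 was seen in 4.23% of Cytl1 cells, 88.6% of Sema3g cells and 90.9% of Cxcl9 cells. Sox17 was seen in 14.2% of Sema3g cells (9.80 to 19.7%), against 6.59% of Cxcl9 cells (4.79 to 8.81%) and 0 of the 193 erythroid-like cells, which allows a share of up to 1.55%. In the 81-, 84- and 88-week animals its share was 19.2, 12.5 and 12.7% of Sema3g cells and 4.22, 6.59 and 8.59% of Cxcl9 cells. The intervals pool the cells of all animals, leave out the spread between animals and test no difference. Fli1 was seen in 7.04% of Cytl1 cells, 21.8% of Sema3g cells and 28.6% of Cxcl9 cells, against 5.59% of T cell-like and 1.59% of smooth muscle-like cells.

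**Figure D5:**
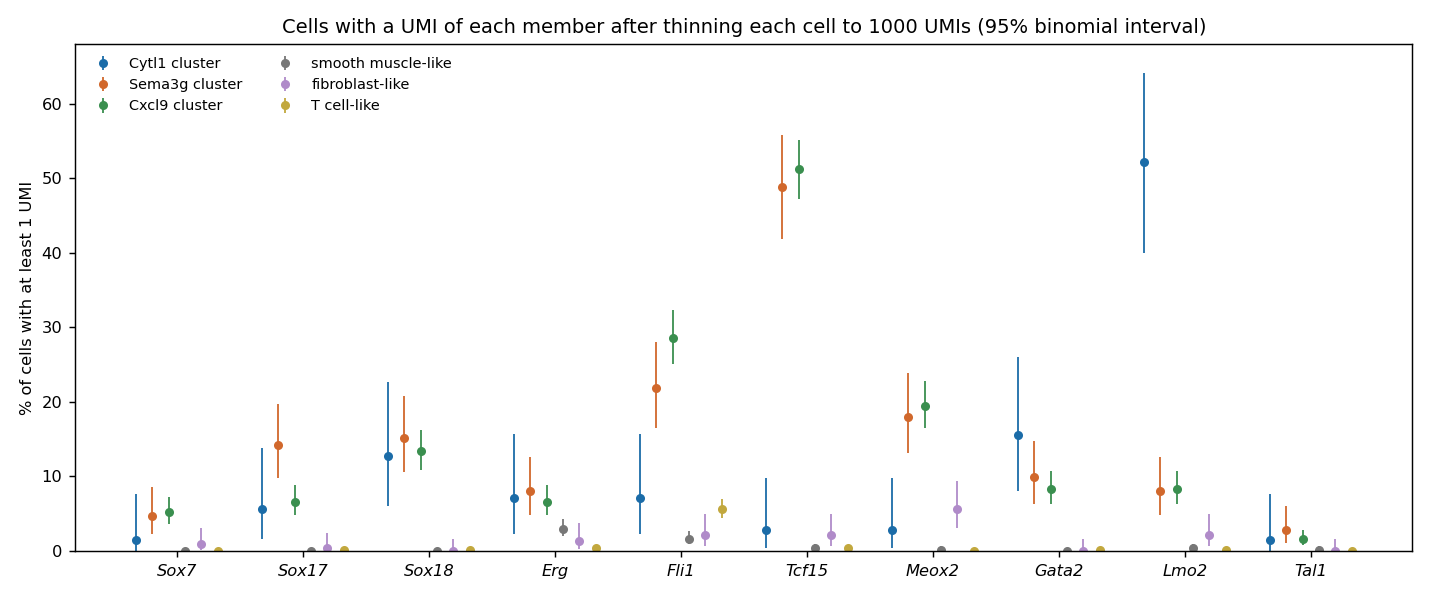
Percent of cells with at least 1 UMI of each member after thinning every cell to 1000 UMIs, with 95% exact binomial intervals, in the 3 endothelial clusters and in smooth muscle-like, fibroblast-like and T cell-like cells. The intervals pool the cells of all animals and leave out the spread between animals. Lmo2 reaches 52.1% in the Cytl1 cluster and Tcf15 reaches 48.8% and 51.2% in the Sema3g and Cxcl9 clusters. Among the other classes drawn, Meox2 in fibroblast-like cells and Fli1 in T cell-like cells stand highest.

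Single cells rarely showed many members at once at this depth. A thinned endothelial-like cell held a UMI of 1.47 members on average, against 0.0545 in smooth muscle-like, 0.147 in fibroblast-like, 0.0881 in erythroid-like and 0.0676 in T cell-like cells. By cluster the mean was 1.08 in Cytl1 cells, 1.52 in Sema3g cells and 1.49 in Cxcl9 cells. At least 3 members were seen in 14.9% of endothelial-like cells and in 0 of 881 smooth muscle-like, 0 of 231 fibroblast-like and 0 of 193 erythroid-like cells, which allow shares of up to 0.341%, 1.30% and 1.55%, and 17.0% of endothelial-like cells showed none. With 2000 UMIs per cell, 48.9% of endothelial-like cells showed at least 3 members and 3.87% showed none, so these shares follow the depth.

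Of the 16 listed partners and inhibitors of the Tal1, Lmo2 and Gata2 complex, 12 were tested between the clusters. In the Cytl1 cluster over the Cxcl9 cluster, 1 of the 12 was called higher and 3 lower, beside 11.8% and 11.9% of all genes tested, with a median log2 fold change of 0.08 beside -0.03 over all genes tested. Id2, an inhibitor of helix-loop-helix factors, had 310 ± 52 CPM in the Cytl1 cluster and 55.9 ± 6.6 CPM in the Cxcl9 cluster, a change of 2.48 ± 0.19. Tcf4, a helix-loop-helix partner, had 321 ± 122 CPM in the Cytl1 cluster and 1185 ± 139 CPM in the Cxcl9 cluster (-1.90 ± 0.20), and Tcf3, another partner, changed by -1.09 ± 0.28. Set against the Sema3g cluster, 1 of 12 was called higher (Id2, 3.44 ± 0.26) and 1 lower (Tcf4, -1.60 ± 0.20), and 0 of 12 were called in Sema3g over Cxcl9. All genes gave 10.4% higher and 11.4% lower in the former contrast, and 2.23% and 1.06% in the latter. In endothelial-like over smooth muscle-like cells, 8 of 15 tested were higher and 2 lower, with Cbfa2t3, a corepressor of the complex, at 214 ± 30 CPM in endothelial-like cells, against 16.6 ± 7.2 CPM in smooth muscle-like cells. The counts were 6 higher and 2 lower over fibroblast-like, 6 and 5 over T cell-like, and 5 and 4 over erythroid-like cells, of 15 tested each. All genes gave 15.6% higher and 16.1% lower over smooth muscle-like and 13.1% and 15.6% over fibroblast-like cells. Over T cell-like cells they gave 26.8% and 20.3%, and over erythroid-like cells 23.0% and 11.7%.

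Of the other ETS factors, those called between the clusters were lower in the Cytl1 cluster. In Cytl1 over Cxcl9, 0 of 10 tested were called higher and 4 lower, with a median of -0.79, and over Sema3g 0 were higher and 3 lower, with a median of -0.67. All genes gave 11.8% higher and 11.9% lower in the former contrast, and 10.4% and 11.4% in the latter. Ets1 had 64.9 ± 36.1 CPM in the Cytl1 cluster and 517 ± 29 CPM in the Cxcl9 cluster (-3.10 ± 0.26), and Ets2 had 74.9 ± 17.8 CPM in the Cytl1 cluster and 484.5 ± 20.8 CPM in the Cxcl9 cluster (-2.65 ± 0.20). In Sema3g over Cxcl9, 0 of 10 were called (2.23% of all genes were higher and 1.06% lower). In endothelial-like over smooth muscle-like cells 6 of 13 were higher and 1 lower, led by Elk3 (2.99 ± 0.13), and over fibroblast-like cells 6 of 11 were higher and 1 lower. Over T cell-like and over erythroid-like cells 1 of 10 was called higher, Elk3 each time, and 0 lower. All genes gave 15.6% higher and 16.1% lower over smooth muscle-like and 13.1% and 15.6% over fibroblast-like cells. Over T cell-like cells they gave 26.8% and 20.3%, and over erythroid-like cells 23.0% and 11.7%.

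Among the other vascular transcription factors, 7 of 19 were higher and 5 lower in Cytl1 over Cxcl9, beside 11.8% and 11.9% of all genes. Hey2, a Notch target known for the arterial fate, had 126 ± 11 CPM in the Cytl1 cluster and 1.99 ± 1.59 CPM in the Cxcl9 cluster (5.78 ± 0.44). Foxc2, a forkhead factor, changed by 5.56 ± 0.55, with 76.9 ± 72.2 CPM in the Cytl1 cluster, and Bcl6b, a repressor found in endothelium, changed by -3.48 ± 0.30. In Cytl1 over Sema3g, 5 were higher and 5 lower, among them the zinc finger factor Gata6, at 317 ± 78 CPM in the Cytl1 cluster and 6.50 ± 4.97 CPM in the Sema3g cluster (5.80 ± 0.36). The low side held 7 UMIs of Hey2 and 5 of Foxc2 in the Cxcl9 cluster, and 6 of Gata6 in the Sema3g cluster. These 3 genes passed the filter on low counts through clusters where they were high, so only a higher call or none could arise. In Sema3g over Cxcl9, Hey1, another Notch target, was the 1 called higher (2.72 ± 0.48), and Nr2f2, a factor of the venous fate, the 1 called lower (-1.68 ± 0.37). All genes gave 10.4% higher and 11.4% lower in Cytl1 over Sema3g, and 2.23% and 1.06% in Sema3g over Cxcl9. Against the other classes the counts of higher and lower were 7 and 5 of 21 (smooth muscle-like), 9 and 4 of 20 (fibroblast-like), 15 and 0 of 20 (T cell-like) and 13 and 0 of 18 (erythroid-like). The shares of all genes were 15.6% and 16.1%, 13.1% and 15.6%, 26.8% and 20.3%, and 23.0% and 11.7% in that order. Bcl6b was called higher over all 4 classes, with 174 ± 24 CPM in endothelial-like cells, against 0.261 ± 0.245 CPM in smooth muscle-like cells. It had 4 UMIs in smooth muscle-like, 4 in T cell-like and 0 in erythroid-like cells, so the same limit holds there.

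Relatives of the members that are known from other tissues were few. In Cytl1 over Cxcl9, 2 of 4 tested (of 15 listed) were higher, among them Twist1, a helix-loop-helix factor of mesenchyme, with 120 ± 95 CPM in the Cytl1 cluster and 2.25 ± 2.04 CPM in the Cxcl9 cluster (5.50 ± 0.45), and 1 was lower. That one was Meox1, the close relative of Meox2, with 4.77 ± 4.86 CPM in the Cytl1 cluster and 57.8 ± 12.9 CPM in the Cxcl9 cluster (-3.50 ± 0.53). The low side held 8 UMIs of Twist1 in the Cxcl9 cluster and 4 of Meox1 in the Cytl1 cluster. Both passed the filter on low counts through clusters where they were high. Only a higher call of Twist1 and a lower call of Meox1, or none, could therefore arise. Meox1 differed also between the clusters in which Meox2 did not pass: it had 10.45 ± 6.13 CPM in the Sema3g cluster and 57.8 ± 12.9 CPM in the Cxcl9 cluster (-2.22 ± 0.39). Fibroblast markers summed to 1334 to 2553 CPM in the Cytl1 cluster, against 331 to 455 CPM in the Cxcl9 cluster, and their part in the values of Twist1 and Foxc2 was not tested. In Cytl1 over Sema3g 1 of 4 relatives was higher, again Twist1 (4.35 ± 0.51, on 6 UMIs in the Sema3g cluster), and in Sema3g over Cxcl9, Meox1 and Sox4 (-1.08 ± 0.28) were the 2 called lower. All genes gave 11.8% higher and 11.9% lower in Cytl1 over Cxcl9. They gave 10.4% and 11.4% in Cytl1 over Sema3g, and 2.23% and 1.06% in Sema3g over Cxcl9. Against the other classes, 2 of 9 relatives were higher and 4 lower over smooth muscle-like, 1 and 6 of 9 over fibroblast-like, 3 and 1 of 4 over T cell-like and 2 and 1 of 4 over erythroid-like cells. The shares of all genes were 15.6% and 16.1%, 13.1% and 15.6%, 26.8% and 20.3%, and 23.0% and 11.7% in that order.

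The 21 endothelial genes listed as reported targets were higher in endothelium but not even among the clusters. All 21 were called higher over smooth muscle-like, T cell-like and erythroid-like cells, and 19 of 21 over fibroblast-like cells. Of all genes tested, 15.6%, 26.8%, 23.0% and 13.1% were called higher in that order. Some of the 21 passed the filter on low counts only through the endothelial-like samples. The other side held 3 UMIs of Robo4 in smooth muscle-like, 1 of Dll4 in T cell-like and 0 of Tie1 and Nos3 in erythroid-like cells. The class was also named by endothelial markers, so these counts describe the class and are no support. In Cytl1 over Cxcl9, 3 of 21 were higher and 12 lower, with a median of -1.54, and over Sema3g 2 were higher and 12 lower, with a median of -1.57. All genes gave 11.8% higher and 11.9% lower in the former contrast, and 10.4% and 11.4% in the latter. Gpihbp1, which holds lipoprotein lipase on the capillary wall, had 5.16 ± 4.70 CPM in the Cytl1 cluster and 2803 ± 104 CPM in the Cxcl9 cluster (-8.76 ± 0.29). The Cytl1 value rests on 5 UMIs. Gpihbp1 was also picked from these same cells as a leading gene of the Cxcl9 cluster, so its change describes the clusters and tests nothing. Cd36, a fatty acid receptor, had 63.9 ± 59.8 CPM in the Cytl1 cluster and 3383 ± 581 CPM in the Cxcl9 cluster (-5.97 ± 0.33). Vcam1, an adhesion molecule, had 749 ± 135 CPM in the Cytl1 cluster and 17.9 ± 4.8 CPM in the Cxcl9 cluster (5.46 ± 0.23). Efnb2, an arterial ligand, was the 1 of 21 called in Sema3g over Cxcl9, at 303.5 ± 65.0 CPM in the Sema3g cluster and 71.9 ± 4.1 CPM in the Cxcl9 cluster (2.02 ± 0.21). In that contrast 2.23% of all genes were called higher and 1.06% lower.

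Across 10 groups, the 3 endothelial clusters and 7 other classes, the genes most like each member were looked up by Pearson's r of log2(CPM + 1) among 10279 genes, as a description with no test, since the groups share animals and libraries. The SoxF genes lay closest to each other and to plain endothelial genes: Sox17 and Sox18 were each other's closest gene (r = 0.996), and Emcn, an endothelial surface mucin, was the closest to Sox7 (0.998). Gata2 and Tal1 were also close (0.989), each second in the other's list, behind She for Gata2 (0.996) and behind Nos3, the endothelial nitric oxide synthase, for Tal1 (0.991). Lmo2 was less like any gene, with Clec1a first (0.935) and r = 0.818 to Gata2 and 0.792 to Tal1. Tcf15 was nearest to Cd300lg (0.973), Fabp4 (0.971) and Cd36 (0.964), which bind or take up lipids or mark capillaries, and its r to Meox2 was 0.911. Meox2 was nearest to Tcf4 (0.932), with Lpl, lipoprotein lipase, also among the 3 nearest (0.917). Erg was nearest to Rgs3 (0.943) and Fli1 to Stim2 (0.967), and the r between Erg and Fli1 was 0.599.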

How the data were processed

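The authors deposited 1 matrix of raw UMI counts, the reads collapsed to molecules, for genes and hashtags, made with Cell Ranger 6.0.1 per the file headers; mm10 and Seurat 4.0.5 are named in the submitters' processing notes. No depth is known per library, since the matrix merges them. Cells with at least 500 genes, 1000 UMIs and under 15% mitochondrial counts passed (11301), Scrublet removed 360 doublets (3.19%), and HTODemux (Seurat 5.3.0, quantile 0.99) kept cells with 1 hashtag. Leiden clustering (scanpy 1.11.5, 2000 variable genes, 30 components, 15 neighbours, resolution 0.8) left out the members, all gene lists, mitochondrial and ribosomal protein genes. Clusters were named by markers, and those with a second lineage's score at 0.5 or more of the first were left out, a rule set after seeing the data.

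Counts were summed per animal and group and tested in edgeR 4.0.16 (TMM, filterByExpr, quasi-likelihood, R 4.3.3) with the animal as a block, since both groups of a comparison come from the same animals. Intervals and floors (3 UMIs) cover counting error only. The 10 members and the 5 further lists were chosen with earlier results of these data known. The rule for naming other genes took, per list and comparison, the 2 strongest calls in each direction among genes that moved alike in all 3 animals and reached 50 CPM in the higher group, and for likeness the 3 closest genes. On simulated counts, 91% to 98% of genes changed by a log2 fold of 1.5 and 99% to 100% of those changed by 2.0 were recovered over the comparisons. No smaller change was simulated. Only genes expected to be well counted in the smallest sample were changed, all genes had the same spread, and no difference between animals was simulated. The recovery therefore does not cover members with few UMIs, such as Tal1 with 10, 10 and 16 UMIs in the Cytl1 cluster of the 3 animals. Alternatives were DESeq2 1.42.0, no low-count filter, no block, each animal left out, other hashtag, doublet, mitochondrial, resolution and clustering-gene choices, 2000 UMIs for thinning and, added after seeing the data, leaving out cells with T cell RNA.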

Additional observations from a re-analysis of the deposited data

Results flagged for a closer look

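Endothelial-like cells that carried no single hashtag entered no comparison, yet they held all 10 members above the limit that a count of 0 allows (6.74 CPM). In these 101 cells Sox7 had 56.2 CPM, Sox17 53.9 CPM and Sox18 159.6 CPM. Erg had 98.9 CPM and Fli1 243 CPM. Tcf15 had 373 CPM and Meox2 110.1 CPM. Gata2 had 94.4 CPM, Lmo2 209 CPM and Tal1 38.2 CPM. They were clustered together with the hashtagged cells in a separate clustering, which had 2 endothelial clusters and no Sema3g cluster of its own, and 73 of them fell into the larger cluster of 870 cells and 28 into the smaller one of 103 cells, which was led by Vwf and Cytl1. Neither cluster is the one of the comparisons. Tcf15 had 683 CPM in the 73 cells and no UMI in the 28 cells, where Lmo2 had 366 CPM. The 28 cells also held 1134 UMIs of Ccl21a and 276 of Mmrn1, genes of lymphatic endothelium, so their values are not set beside those of the hashtagged Cytl1 cluster.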

How the results depend on the processing

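Of 757 alternative values of single members, 727 kept their direction and side of the threshold, 14 lost the call, 4 gained it and 12 changed sign without being called. Of 304 counts, 285 stayed within 1.5 times. Leaving out the replicate block gave 1648 higher and 1672 lower genes over smooth muscle-like, 1235 and 1442 over fibroblast-like, 2744 and 2108 over T cell-like and 2039 and 1107 over erythroid-like cells, and 741 and 741, 664 and 719, and 118 and 48 in Cytl1 over Cxcl9, Cytl1 over Sema3g and Sema3g over Cxcl9; no count of members changed. Leaving out each animal gave 7 to 10 members, 585 to 1985 higher and 398 to 1284 lower genes over erythroid-like cells, 2 to 3 members higher in Cytl1 over Cxcl9, 1 to 2 higher and 3 to 4 lower in Cytl1 over Sema3g, and 0 to 1 higher in Sema3g over Cxcl9. The stricter hashtag choice gave 908 genes lower over fibroblast-like cells, 1 member, 104 higher and 157 lower genes over erythroid-like cells, 2 members higher in Cytl1 over Sema3g (Tal1 at 1.25), and 86 higher and 16 lower genes in Sema3g over Cxcl9. DESeq2 gave 1208 higher and 581 lower genes over erythroid-like cells and 27 lower in Sema3g over Cxcl9. Without the low-count filter 1180 genes were lower in Cytl1 over Cxcl9 and 127 in Sema3g over Cxcl9. Without cells holding T cell RNA 1 member was higher in Cytl1 over Cxcl9, since Tal1 did not pass the low-count filter. For the others the cause was not tested.

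The sign changes, on the log2 scale, were these. Leaving out each animal gave ranges of Sox7 from -0.10 to 0.36, Sox17 from -0.27 to 0.04, Sox18 from -0.56 to 0.0003 and Erg from -0.06 to 0.42 in Cytl1 over Cxcl9, Erg from -0.16 to 0.40 in Cytl1 over Sema3g, and Erg from -0.25 to 0.26 and Lmo2 from -0.43 to 0.03 in Sema3g over Cxcl9. Without the low-count filter Sox7 came to -0.02 in Cytl1 over Cxcl9 and Erg to -0.004 in Cytl1 over Sema3g. With the stricter hashtag Sox17 came to 0.01 in Cytl1 over Cxcl9 and Erg to -0.05 in Sema3g over Cxcl9, where Erg came to -0.03 without cells holding T cell RNA. A mitochondrial limit of 10% gave no value for the T cell-like, erythroid-like and both Sema3g comparisons. Keeping doublets, or the lists in the clustering, merged the Sema3g and Cxcl9 clusters. Tal1 (124 endothelial UMIs) and the 71 Cytl1 cells are where depth limits the values most.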
